A study of Rattus norvegicus with 10 samples.

Results

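The genes described here encode the nuclear subunits of the oxidative phosphorylation chain, measured on 10 Affymetrix Rat Genome 230 2.0 arrays of rat mammary tumors. A gene was taken when its platform symbol began with Ndufa, Ndufb, Ndufc, Ndufs, Ndufv, Uqcr, Atp5 or Cox4 to Cox8, or was Sdha to Sdhd, with the muscle isoforms Cox6a2 and Cox8b left out. Of 14217 genes with a probe set naming that gene alone, 84 met the rule, and each was represented by its brightest such probe set over the 10 arrays. The tested set had 83 of them, since Cox7b2, a testis isoform of complex IV, was among the dimmest 25% of probe sets (3.39 ± 0.08 in final samples and 3.33 ± 0.12 in basal samples, log2 units, SD, n = 5 each). By role, the 83 were 34 complex I subunits, 6 Ndufaf complex I assembly factors that the symbol rule also takes in, 4 subunits of complex II, 7 of complex III, 15 genes of complex IV, 16 of complex V and the pseudogene Cox6c-ps1. Probe sets that name a second gene besides Ndufa10, Ndufs5, Uqcrb, Cox7a2, Atp5mc1 or Atp5mc2 were not used, so those 6 genes were not analysed here.

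The final samples (n = 5) were taken at 19 weeks of age, in week 7 after biopsy, from tumors of female Sprague-Dawley rats given adriamycin (doxorubicin, a topoisomerase II poison) at 1 mg/kg per week for 6 weeks into the tail vein. The basal samples (n = 5) were needle biopsies of the same tumors at 12 weeks of age, untreated and with a tumor volume of 2 cm3, and the tumors carry the codes 09I1, 11D2, 12I1, 29I1 and 43D1. Every tumor in both groups had been induced by mouth with the carcinogen DMBA (a single 100 mg/kg) and was of Bloom-Richardson grade 2. The sample labels describe the final sample as the whole tumor and the design text as a needle core, and no untreated tumor was sampled at 19 weeks. Adriamycin, age, possibly the kind of sample and the array codes, which form a separate run in each group, therefore cannot be told apart in any difference given here. It is not stated whether the tumors grew in separate rats, so the p-values measure only the spread of the final minus basal difference over these tumors.

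Oxidative phosphorylation passes electrons from NADH through complex I, and from succinate through complex II, to coenzyme Q, complex III, cytochrome c and complex IV, which reduces oxygen. Complexes I, III and IV pump protons across the inner mitochondrial membrane, and complex V, the ATP synthase, uses the returning protons to make ATP. All complexes except II also hold subunits encoded in mitochondrial DNA, which are not among these genes. Nuclear subunits of a complex are often expressed in concert, and tumor cells draw on this pathway beside glycolysis for ATP. Anthracyclines such as adriamycin are known for damage to mitochondria in heart muscle.

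One array stood apart. The final 09I1 array had a median correlation of 0.896 with the others, against 0.958 to 0.973 for the other 9 arrays. Its beta-actin control probe sets differed by 2.61 log2 units between the 3′ and the 5′ end, against 0.72 to 0.96 on the others, and its GAPDH control probe sets by 0.93, against 0.094 to 0.24. The main differences are therefore given by tumor or with and without 09I1. The luminal epithelium markers, 10 of 10 above the filter on dim probe sets, had a summed level (log2 of the sum of linear levels) of 14.5 to 15.3 in final samples and 14.8 to 15.2 in basal samples. In 09I1 that sum was 14.5 in the final sample and 15.2 in the basal sample.

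No subunit gene passed the test of final against basal samples, whereas most were higher in the final sample in 3 tumors and lower in the other 2. Limma with the tumor as a block called 0 of the 83 at an adjusted p under 0.05, against 0.00% of all 12255 genes tested, and the lowest adjusted p among the 83 was 0.977. At an unadjusted p under 0.05 limma called 0 of the 83, against 2.88% of all genes, and the lowest unadjusted p was 0.157, for Atp5if1. The mean difference over the 5 tumors was above 0 for 74 genes (89.2% of the 83, against 52.7% of all genes), and over the 4 tumors without 09I1 for 34 genes (41.0%, against 48.4%). In none of the 83 were the final and basal samples separate (0.840% of all genes). In bulk tissue, fewer cells of a type and less RNA per cell cannot be told apart, and this holds for every difference below.

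Within tumors the direction was shared by most of the genes. The final sample was higher for 77 of the 83 in 09I1 (58.6% of all genes were higher there), for 71 in 11D2 (47.1% of all genes) and for 64 in 12I1 (56.9% of all genes). It was lower for 71 in 29I1 (54.3% of all genes were lower) and for 65 in 43D1 (51.1% of all genes). The pattern of higher in 09I1, 11D2 and 12I1 and lower in 29I1 and 43D1, chosen after the values were seen, was met by 39 genes (47.0% of the 83, against 5.71% of all genes). The genes of a tumor share 2 arrays, so these shares describe each pair of arrays and count 1 tumor, not 83 replicates.

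The size of the differences set 09I1 apart. The median final minus basal difference over the 83 was 0.88 log2 units in 09I1, whereas 11D2 had 0.09, 12I1 0.09, 29I1 -0.14 and 43D1 -0.14. Over all genes tested the medians were 0.15, -0.02, 0.05, -0.04 and -0.01 in the same tumors. The median of the 83 mean differences was 0.15 with all tumors and -0.02 without 09I1. In 09I1, 63 of the 83 differed by over 0.5 log2 units (50.7% of all genes), and 37 were over 1 unit higher in the final sample (12.2% of all genes). Past the same 0.5 units lay 0 genes in 11D2 (15.0% of all genes), 3 in 12I1 (16.1%), 1 in 29I1 (22.5%) and 0 in 43D1 (23.8%). Outside 09I1 the 83 genes lay close together: their differences had an SD across genes of 0.09 (11D2), 0.31 (12I1), 0.23 (29I1) and 0.16 (43D1), against 0.49, 0.48, 0.56 and 0.59 across all genes. In 09I1 the SD was 0.54 across the 83 and 0.82 across all genes. The probe sets of the 83 were brighter than most, with a median level of 10.6 to 11.6 on each array, against 5.93 to 6.12 over all probe sets. The part of brightness in these spreads, in the shares past 0.5 units and in the shares higher or lower within each tumor was not tested.

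**Figure D1:**
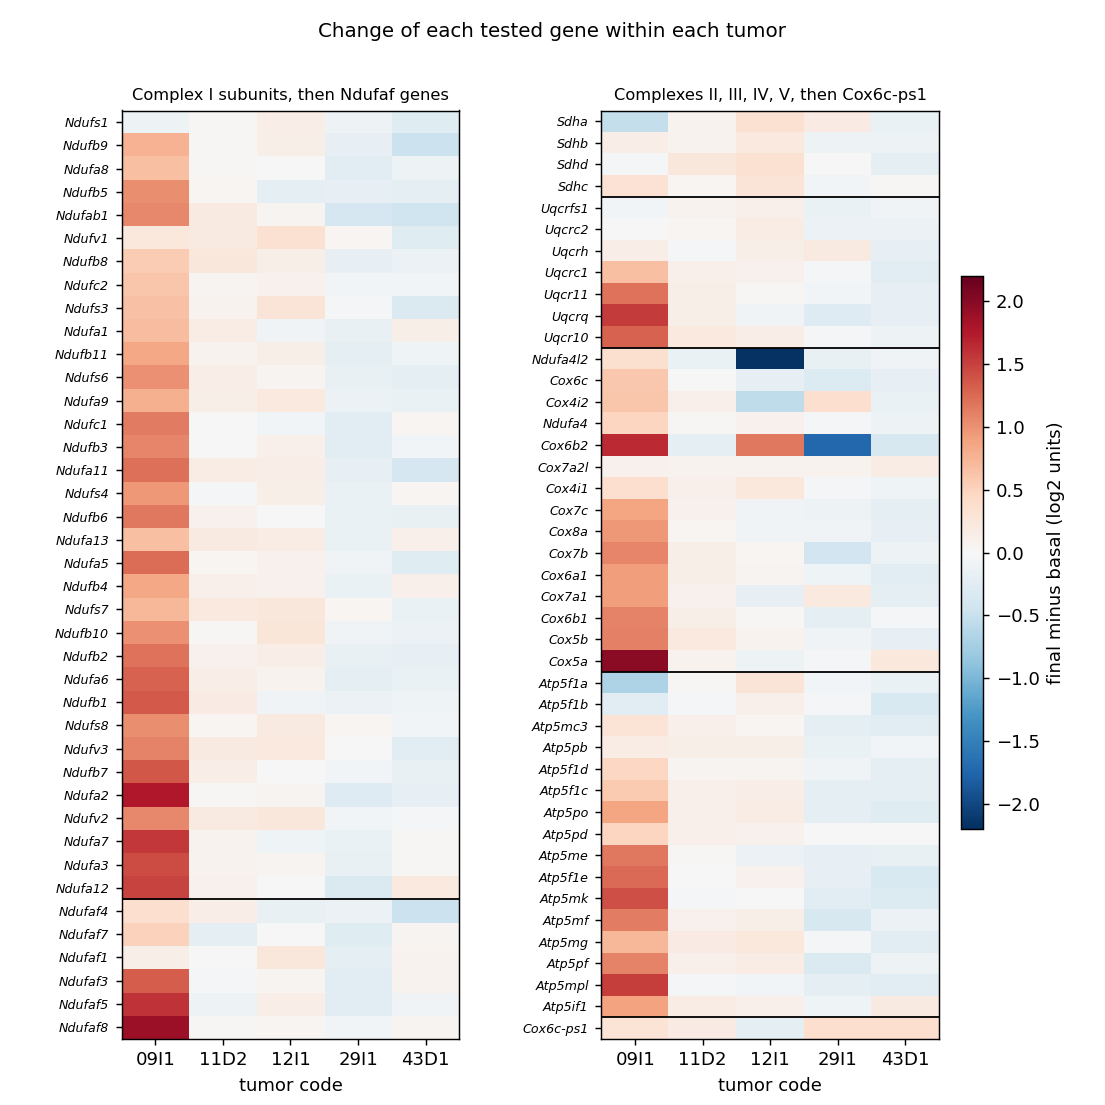
Final minus basal difference (log2 units, colour scale) of each of the 83 tested genes in each of the 5 tumors, with black lines between complexes and genes ordered by their mean difference within each. The 09I1 column is red for 77 genes, 11D2 and 12I1 are mostly pale red, and 29I1 and 43D1 are mostly pale blue.

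Both arrays of 09I1 contributed. The median level of the 83, each centred on its mean over the 10 arrays, was 0.65 in the final 09I1 sample and between -0.14 and 0.04 in the other 4 final samples. In the basal samples it was -0.26 in 09I1 and between -0.10 and 0.03 in the others. The final 09I1 array had the highest of the 10 levels for 66 of the 83 (35.1% of all genes), and the basal 09I1 array had the lowest for 51 (13.9% of all genes). Markers of other cell types differed in 09I1 as well: the median difference was 1.08 for 7 adipocyte genes, -0.45 for the 10 luminal genes, -0.51 for 8 fibroblast genes and -1.15 for 5 red blood cell genes. The summed adipocyte level was 10.1 in the final and 9.06 in the basal 09I1 sample, within the ranges of 8.89 to 11.3 over final and 8.71 to 11.3 over basal samples. The summed fibroblast level was 13.5 in the final and 14.3 in the basal 09I1 sample, within 13.3 to 14.8 over final and 13.6 to 14.8 over basal samples. The summed red blood cell level was 12.6 in the final and 14.3 in the basal 09I1 sample, with 9.45 to 13.3 over final and 11.4 to 14.5 over basal samples. The 7 macrophage genes had a median of -0.25 in 09I1.

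Markers also differed within the other tumors. In 11D2 the median difference was 2.26 for the adipocyte, 0.99 for the fibroblast, 0.84 for the macrophage and -1.29 for the red blood cell genes. In 12I1 it was 0.73 for the fibroblast, -0.85 for the macrophage and -2.63 for the red blood cell genes. In 29I1 it was -2.12 for the adipocyte, -1.20 for the fibroblast (8 of 8 lower) and -1.43 for the macrophage genes (7 of 7 lower). In 43D1 it was 0.83 for the adipocyte, -0.31 for the fibroblast and 1.20 for the macrophage genes (7 of 7 higher). The luminal genes had 0.11, 0.10, 0.32 and 0.26 in those tumors. The red blood cell genes had -0.36 in 29I1 and -0.28 in 43D1, with 3 of 5 lower in each. Their summed level was 9.45 in the final and 13.1 in the basal 29I1 sample. In 43D1 that sum was 9.98 in the final and 11.4 in the basal sample. The summed macrophage level was 11.3 to 12.4 over final and 10.8 to 13.0 over basal samples. The part of these markers in the tumors' differences, and of the 3′ to 5′ control differences in that of 09I1, was not tested.

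**Figure D2:**
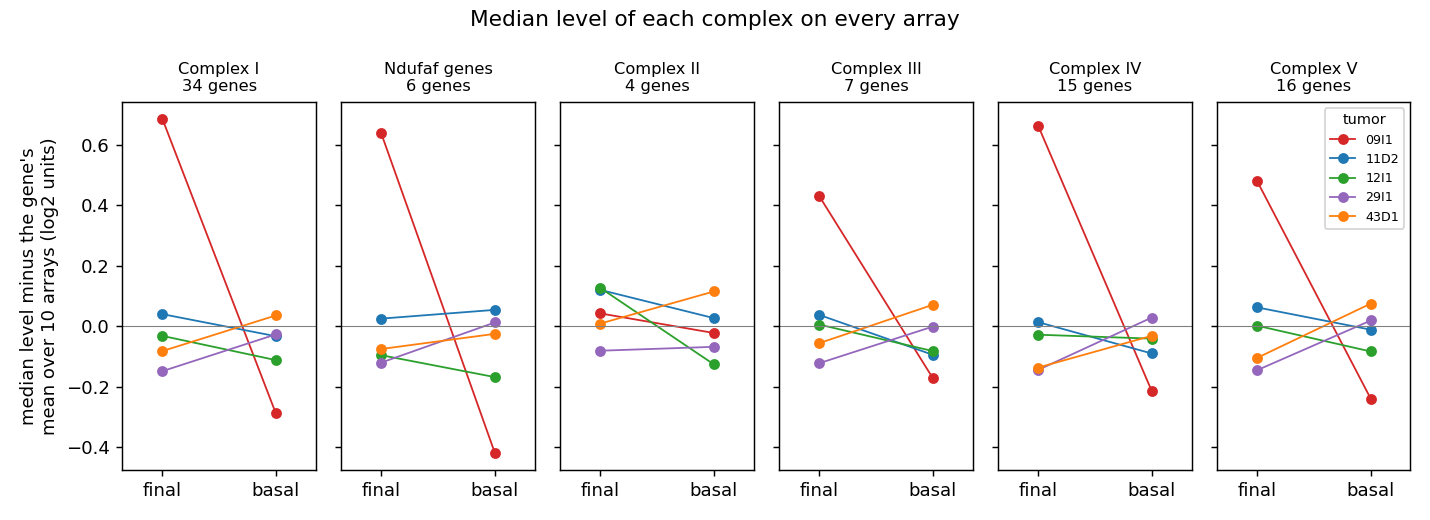
Median level of each complex on every array (log2 units, each gene centred on its mean over the 10 arrays), with a line joining the final and basal sample of a tumor. The final 09I1 sample lies at 0.69 for complex I and 0.66 for complex IV, against 0.04 for complex II.

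Complex I, the NADH dehydrogenase, had median differences of 1.02 (09I1), 0.10 (11D2), 0.10 (12I1), -0.15 (29I1) and -0.13 (43D1). The mean difference was above 0 for 33 of its 34 genes, and for 16 of 34 without 09I1. The 6 core subunits, which carry the flavin and iron-sulfur clusters, had a median of 0.69 in 09I1 with a range of -0.11 to 1.06, while the 28 accessory subunits, which surround and stabilise the core, had a median of 1.06 with a range of 0.56 to 1.76. In the other tumors the accessory genes had medians of 0.10 (11D2), 0.08 (12I1), -0.16 (29I1) and -0.12 (43D1), and the core genes 0.13, 0.25, 0.003 and -0.20. By count, the final sample was higher for 32 of the 34 complex I genes in 11D2 and 29 in 12I1, and lower for 30 in 29I1 and 26 in 43D1. The core genes Ndufv2 (1.06) and Ndufs8 (1.02) had the highest differences of their class in 09I1, whereas Ndufv1, which binds NADH, had 0.23 there. All 6 core genes were higher in the final sample in 11D2 and 12I1 and lower in 43D1, with differences of -0.32 for Ndufs3 to -0.04 for Ndufv2 in the last.

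The highest mean difference of complex I was that of the accessory subunit Ndufa12. Its level was 11.94, 11.11, 10.97, 10.87 and 10.93 in the final samples of 09I1, 11D2, 12I1, 29I1 and 43D1, and 10.45, 11.01, 10.96, 11.18 and 10.71 in the basal samples. The groups overlapped, and the final 09I1 sample stood above the other 9. The mean difference was 0.30 ± 0.25 (SE, n = 5 pairs, limma adjusted p = 0.977) and 0.004 without 09I1. Ndufa3, another accessory subunit, was at 11.97, 10.73, 10.64, 10.63 and 10.76 in the final and 10.54, 10.66, 10.58, 10.79 and 10.73 in the basal samples. Apart from the final 09I1 sample, all 9 levels of Ndufa3 lay within 10.54 to 10.79. At the other end, Ndufs1, a core subunit with iron-sulfur clusters, was at 9.51, 10.16, 10.05, 9.94 and 9.97 in the final and 9.61, 10.13, 9.91, 10.06 and 10.24 in the basal samples. Both 09I1 samples were the lowest of their group for Ndufs1, and its difference in 09I1 was -0.11. Ndufb9, an accessory subunit of the membrane arm, had the lowest difference of the 83 in 43D1 (-0.48), with 11.69 in the final and 12.16 in the basal sample.

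The 6 Ndufaf genes encode factors that help to assemble complex I and are not part of the finished enzyme. Their median difference was 0.92 (09I1), -0.02 (11D2), 0.06 (12I1), -0.21 (29I1) and 0.06 (43D1). Ndufaf8 was 1.89 higher in the final 09I1 sample, with 9.51 in the final and 7.62 in the basal sample, and differed by -0.07 to 0.06 in the other tumors.

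Complex II, succinate dehydrogenase, is the one complex encoded wholly in the nucleus and also works in the TCA cycle. It had the smallest median difference of the complexes in 09I1, at 0.05, and medians of 0.08 (11D2), 0.31 (12I1), -0.03 (29I1) and -0.13 (43D1). All 4 genes were higher in the final sample in 11D2 and in 12I1. The catalytic flavoprotein Sdha was at 10.21, 10.79, 10.94, 10.77 and 10.83 in the final and 10.73, 10.71, 10.61, 10.58 and 10.97 in the basal samples. In 09I1 Sdha differed by -0.52 (0.698-fold), and that sample was the lowest of the 10, while in 12I1 it was 0.33 higher. Its mean difference was -0.01 ± 0.15 (SE, n = 5 pairs, limma adjusted p = 0.996) and 0.11 without 09I1. Sdhb, the iron-sulfur subunit, averaged 11.42 ± 0.11 in final and 11.38 ± 0.08 in basal samples, with a mean difference of 0.02 without 09I1. The membrane anchors were likewise close: Sdhc averaged 10.83 ± 0.12 in final and 10.71 ± 0.09 in basal samples, and Sdhd 10.92 ± 0.10 in final and 10.85 ± 0.19 in basal samples (SD, n = 5 each). Without 09I1 the mean difference was 0.08 for Sdhc and 0.10 for Sdhd. Sdhd had the highest difference of the 83 in 11D2, at 0.25.

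Complex III, the cytochrome bc complex, had 09I1 differences that spread widely over its 7 genes, from -0.05 to 1.54. The small subunits Uqcr10, Uqcrq and Uqcr11, which have no redox centre, were 1.29, 1.54 and 1.19 higher in the final 09I1 sample, whereas the Rieske iron-sulfur protein Uqcrfs1 differed by -0.05 and the core protein Uqcrc2 by 0.003. The types of subunit did not separate, since the small subunit Uqcrh differed by 0.14 and the core protein Uqcrc1 by 0.66. Uqcrq was at 12.20, 11.21, 11.11, 10.97 and 11.07 in the final and 10.66, 11.08, 11.18, 11.25 and 11.25 in the basal samples. Its final 09I1 sample was the highest and its basal 09I1 sample the lowest of the 10. Its mean difference was 0.23 ± 0.27 (SE, n = 5 pairs, limma adjusted p = 0.977) and -0.10 without 09I1. Uqcr10 had 13.24 in the final and 11.95 in the basal 09I1 sample, 2.45-fold, and between 0.920-fold and 1.17-fold in the other tumors. Uqcrc2 was at 11.21, 11.56, 11.47, 11.28 and 11.35 in the final and 11.21, 11.52, 11.31, 11.40 and 11.48 in the basal samples, with both 09I1 samples at the low end. Uqcrfs1 averaged 11.48 ± 0.16 in final and 11.49 ± 0.10 in basal samples (SD, n = 5 each), with a mean difference of -0.005 without 09I1. All 7 genes of the complex were lower in the final 43D1 sample, by differences of -0.25 for Uqcrc1 to -0.07 for Uqcrfs1.

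Probe sets of the same gene did not always give the same difference in 09I1. The second probe set of Uqcrc2 had a difference of -1.61, with 8.39 in the final sample, where the brighter one had 0.003. The second probe set of Ndufv3 differed by -0.04 and the brighter one by 1.09. For Cox5a, a probe set that also names the locus LOC100361008 differed by 0.57 and the one used here by 1.98.

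**Figure D3:**
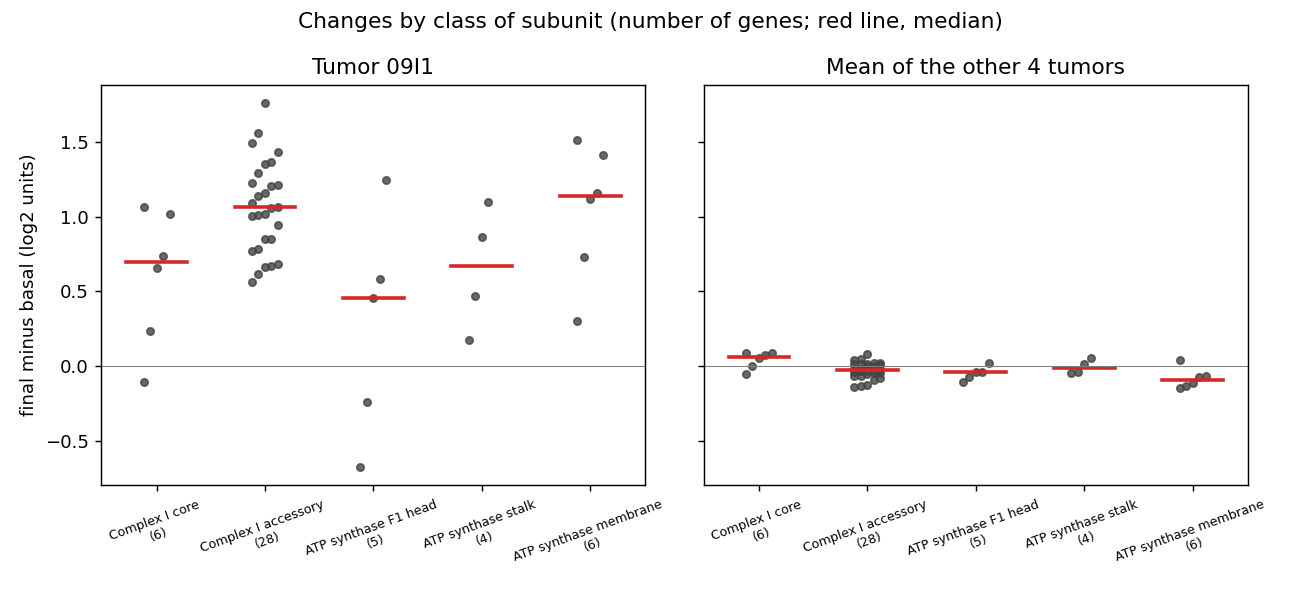
Final minus basal differences (log2 units) of single genes by class of subunit in complexes I and V, in 09I1 (left) and as the mean of the other 4 tumors (right), with red lines at the medians. In 09I1 the complex I accessory genes centre on 1.06 and the ATP synthase F1 genes on 0.46. The class labelled F1 head includes the central stalk. In the other tumors the class medians lie between -0.09 and 0.06.

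Complex IV, cytochrome c oxidase, had median differences of 0.92 (09I1), 0.09 (11D2), 0.03 (12I1), -0.08 (29I1) and -0.15 (43D1). All 15 genes were higher in the final 09I1 sample, 12 were higher in 11D2 and 8 in 12I1, 12 were lower in 29I1 and 13 in 43D1, and 4 of 15 had a mean above 0 without 09I1. Cox5a, a matrix-side subunit, was at 8.79, 7.29, 7.08, 7.38 and 7.41 in the final and 6.81, 7.21, 7.20, 7.42 and 7.18 in the basal samples. The final 09I1 level was 3.95-fold its basal level, the largest difference of the 83 in that tumor. On the brighter probe set that also names LOC100361008, Cox5a was 1.49-fold in 09I1. On the probe set used, the other tumors lay between 0.922-fold and 1.17-fold. The mean difference of Cox5a there was 0.43 ± 0.32 (SE, n = 5 pairs, limma adjusted p = 0.977), and 0.04 without 09I1. Cox5b, the zinc-binding subunit, was at 12.12 in the final and 11.02 in the basal 09I1 sample, and its mean difference without 09I1 was 0.01. Cox6c, a small membrane subunit, averaged 12.04 ± 0.25 in final and 12.05 ± 0.11 in basal samples, with a difference of 0.59 in 09I1 and a mean of -0.17 without it.

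Cox7a2l, which joins complexes III and IV into supercomplexes, was one of 2 genes higher in the final sample of all 5 tumors (2.41% of the 83, against 3.33% of all genes). No gene was lower in all 5 (2.51% of all genes). Cox7a2l was at 11.82, 11.48, 11.61, 11.79 and 11.70 in the final and 11.73, 11.41, 11.52, 11.71 and 11.54 in the basal samples. The groups overlapped because the tumors differed from each other more than the 2 samples of a tumor did, and the differences were 0.09, 0.07, 0.09, 0.08 and 0.17. The mean was 0.10 ± 0.09 (SE, n = 5 pairs, limma adjusted p = 0.977) and 0.10 without 09I1. The other gene was Atp5pd, a stalk subunit of the ATP synthase, with differences of 0.47, 0.11, 0.10, 0.005 and 0.02. The count depends on the probe set used. Dimmer probe sets of Ndufa7 and Atp5po were also higher in all 5 tumors, whereas the brighter ones were lower in 29I1 and in another tumor.

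On the probe sets used, isoforms and paralogues that stand in for a ubiquitous subunit in other tissues held all 4 differences over 0.5 units outside 09I1. These were those of Ndufa4l2, Cox4i2 and Cox6b2 in 12I1 and of Cox6b2 in 29I1. Dimmer probe sets of other subunits also passed 0.5 units, namely those of Ndufv3 (0.73) and Sdhd (0.53) in 12I1 and of Atp5me (-0.74) in 43D1. Ndufa4l2, a paralogue of Ndufa4 that is induced by hypoxia, had a level of 6.37, 5.83, 6.41, 6.72 and 5.69 in the final and 6.03, 5.97, 8.59, 6.88 and 5.77 in the basal samples. The basal 12I1 biopsy stood above the other 9 samples, and the final 12I1 sample had 0.221-fold its level. The mean difference was -0.44 ± 0.36 (SE, n = 5 pairs, limma adjusted p = 0.977), with 1 of 5 tumors higher, and -0.01 without 12I1. Ndufa4 itself, now counted as a complex IV subunit, averaged 12.14 ± 0.24 in final and 12.05 ± 0.13 in basal samples (SD, n = 5 each), with 12.13 in the basal 12I1 sample and a mean difference of -0.005 without 09I1.

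Cox6b2, the testis isoform of Cox6b1, differed in opposite directions between tumors. It was at 8.57, 7.32, 7.17, 6.06 and 5.58 in the final and 6.93, 7.54, 6.01, 7.77 and 5.94 in the basal samples, so the final sample was 3.11-fold in 09I1 and 2.23-fold in 12I1, but 0.304-fold in 29I1 and 0.779-fold in 43D1. The mean difference was 0.10 ± 0.47 (SE, n = 5 pairs, limma adjusted p = 0.985). That mean rested on single tumors, at -0.29 without 09I1, -0.17 without 12I1 and 0.55 without 29I1. The ubiquitous Cox6b1 averaged 11.96 ± 0.38 in final and 11.77 ± 0.14 in basal samples, and the differences outside 09I1 ran from -0.21 to 0.12. Cox4i2, an oxygen-responsive isoform of lung, averaged 5.06 ± 0.24 in final and 4.99 ± 0.42 in basal samples, with differences from -0.55 in 12I1 to 0.60 in 09I1. Its ubiquitous counterpart Cox4i1 averaged 12.73 ± 0.11 in final and 12.62 ± 0.10 in basal samples. Without 09I1 the mean difference was -0.06 for Cox4i2 and 0.05 for Cox4i1. The muscle isoform Cox7a1 was at 5.74 in the final and 4.82 in the basal 09I1 sample, and its ubiquitous counterpart Cox7a2 was not analysed here. Cox6a1, the ubiquitous counterpart of the left-out Cox6a2, was at 12.16 in the final and 11.23 in the basal 09I1 sample. Without 09I1 the mean difference was -0.02 for Cox7a1 and -0.04 for Cox6a1. The pseudogene Cox6c-ps1 had the highest difference of the 83 in 29I1 (0.36) and in 43D1 (0.36), with a mean of 0.20 ± 0.13 (SE, n = 5 pairs, limma adjusted p = 0.977). Its levels of 4.40 to 4.85 in final and 4.20 to 4.62 in basal samples lay just above the limit for dim probe sets of 4.11.

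**Figure D4:**
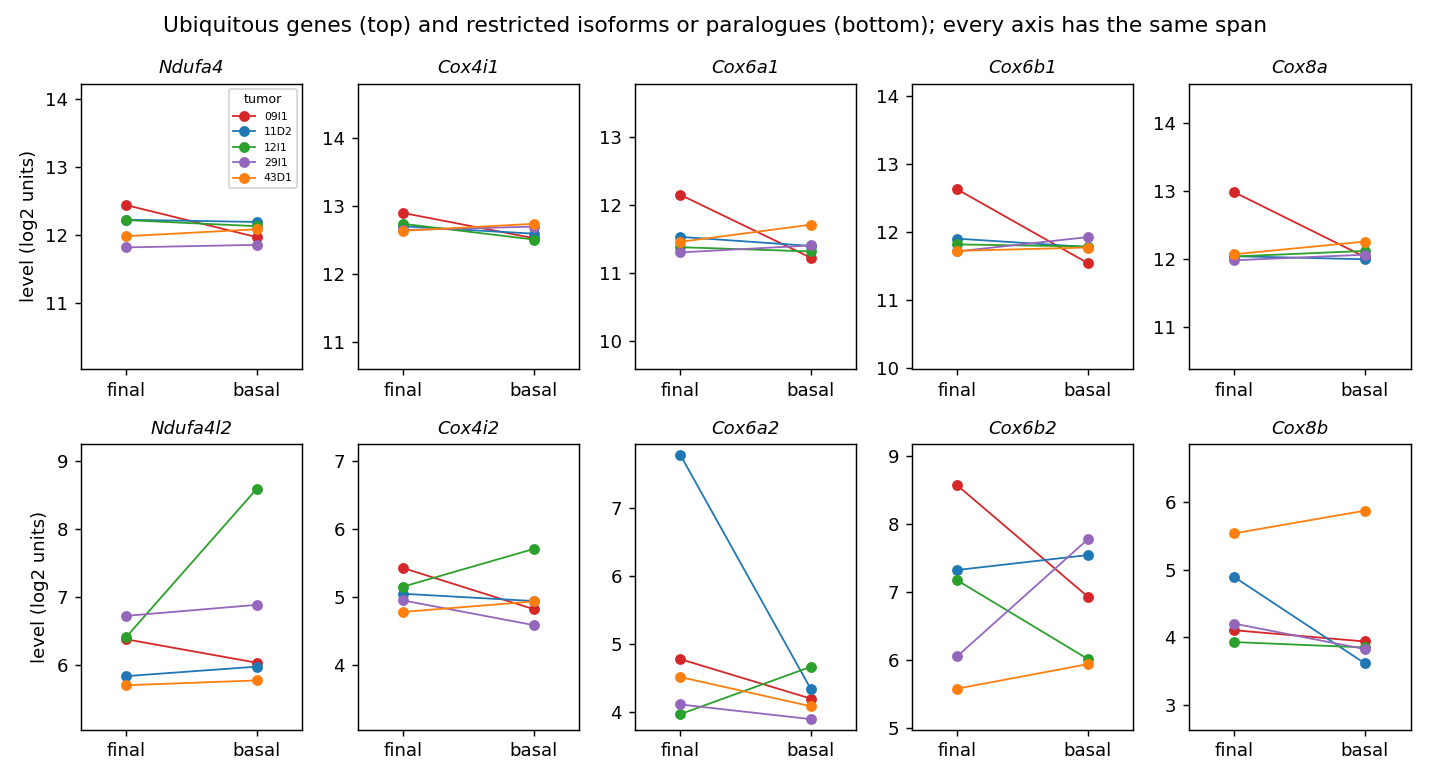
Levels (log2 units) of ubiquitous genes (top) and of tissue-restricted isoforms or paralogues (bottom), with a line joining the final and basal sample of each tumor and axes of equal span. Ndufa4l2 stands at 8.59 in the basal 12I1 sample and Cox6a2 at 7.78 in the final 11D2 sample.

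Of the muscle isoforms left out by the rule, Cox6a2 was high in the final 11D2 sample and Cox8b in the basal 43D1 sample. The skeletal muscle markers, a list that holds both isoforms, were high in those samples. Cox6a2 was at 7.78 in the final 11D2 sample and 4.34 in the basal one, and at 3.97 to 4.78 in the other final and 3.89 to 4.66 in the other basal samples. The 14 tested skeletal muscle markers, Cox6a2 and Cox8b among them, had a median difference of 4.06 in 11D2, and their summed level was 13.6 in the final 11D2 sample against 9.00 to 9.71 in the other final samples. In basal samples that sum was 11.4 in 43D1 and 8.84 to 9.25 in the others. In the basal 43D1 sample Cox8b was at 5.87, but Cox6a2 was at no more than 4.66. In 11D2 the 83 ubiquitous and other oxidative phosphorylation genes had differences within -0.22 to 0.25.

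Complex V, the ATP synthase, had 14 of 16 genes higher in the final sample in 09I1, 13 in 11D2 and 13 in 12I1, with 15 lower in 29I1 and 14 in 43D1. In 09I1 the class medians differed by the place of the subunit, with overlapping ranges and from 1 pair of arrays. The membrane subunits had a median of 1.14 (range 0.30 to 1.52, 6 genes) and the peripheral stalk 0.67 (0.17 to 1.10, 4 genes). The F1 part, which is the catalytic head with the central stalk, had 0.46 (-0.68 to 1.25, 5 genes). Its head genes Atp5f1a and Atp5f1b had -0.68 and -0.24, and its stalk genes Atp5f1c, Atp5f1d and Atp5f1e 0.58, 0.46 and 1.25. In 29I1 and 43D1 the membrane subunits had medians of -0.21 and -0.23, and the F1 part -0.08 and -0.22. Atp5f1a, the alpha subunit of the head, was at 11.05, 12.05, 12.07, 11.84 and 11.90 in the final and 11.73, 12.03, 11.79, 11.91 and 12.05 in the basal samples. The final 09I1 level was the lowest of the 10 and 0.625-fold its basal level, the lowest ratio of the 83 in that tumor. Atp5f1b, the beta subunit, was at 12.14, 12.45, 12.51, 12.36 and 12.41 in the final and 12.38, 12.47, 12.40, 12.40 and 12.75 in the basal samples, again with the final 09I1 sample lowest. Without 09I1 the mean difference was 0.02 for Atp5f1a and -0.07 for Atp5f1b. Atp5mpl, a small membrane subunit, was at 11.90, 10.70, 10.67, 10.52 and 10.52 in the final and 10.38, 10.74, 10.74, 10.72 and 10.75 in the basal samples. It was higher in the final sample of 09I1 (2.86-fold) and lower in that of each other tumor, with a mean difference of 0.19 ± 0.27 (SE, n = 5 pairs, limma adjusted p = 0.977) and -0.14 without 09I1.

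Atp5if1, which blocks ATP hydrolysis by the enzyme when the membrane potential collapses, had the smallest unadjusted p of the 83. It was at 11.51, 10.90, 10.84, 10.74 and 10.92 in the final and 10.62, 10.74, 10.73, 10.84 and 10.72 in the basal samples, higher in the final sample in 4 of 5 tumors. The mean difference was 0.25 ± 0.16 (SE, n = 5 pairs, limma unadjusted p = 0.157 and adjusted p = 0.977), and 0.09 without 09I1. Atp5mc3, a gene for the proton-carrying c ring, averaged 12.30 ± 0.12 in final and 12.29 ± 0.13 in basal samples (SD, n = 5 each), with a mean difference of 0.003 and of -0.07 without 09I1.

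The promoters of these genes are known to bind the factors NRF1, GABP (of the ETS family) and YY1. RefSeq promoter windows (assembly GRCr8, the 250 bases before the start) were found for 76 of the 84 genes and searched on both strands for an NRF1 half-site (GCGCATG or CATGCGC), an ETS core (CCGGAAG or CTTCCGG) and a YY1 core (ATGGCGG or CCGCCAT). These letter strings can share an ATG where an NRF1 and a YY1 match abut. The NRF1 half-site was in 12 windows (15.8%, against 3.88% of all 21842 protein-coding promoters), the ETS core in 21 (27.6%, against 9.01%) and the YY1 core in 7 (9.21%, against 2.66%). A match describes the letters only and not a bound site. The 30 tested genes with any match had a median difference of 0.91 (09I1), 0.09 (11D2), 0.12 (12I1), -0.14 (29I1) and -0.17 (43D1), and the 45 without one had 0.95, 0.09, 0.10, -0.14 and -0.10. The windows of 4 genes are printed, chosen after the values were seen, because they pair genes of 1 complex that share a motif and differed in 09I1. Uqcrq (chr10:38089979-38090228, minus strand, 1.54 in 09I1) and Uqcrc2 (chr1:184598990-184599239, plus strand, 0.003) both hold the ETS core. Ndufa6, an accessory subunit of complex I (chr7:115750318-115750567, minus strand, 1.30), holds all 3 motifs, and Ndufs1 (chr9:72073606-72073855, minus strand, -0.11) the ETS and YY1 cores. Each window runs 5′ to 3′ and ends at the base before the start, with the matches in capitals. In Ndufa6 the NRF1 half-sites of both strands overlap in 1 run.
Uqcrq: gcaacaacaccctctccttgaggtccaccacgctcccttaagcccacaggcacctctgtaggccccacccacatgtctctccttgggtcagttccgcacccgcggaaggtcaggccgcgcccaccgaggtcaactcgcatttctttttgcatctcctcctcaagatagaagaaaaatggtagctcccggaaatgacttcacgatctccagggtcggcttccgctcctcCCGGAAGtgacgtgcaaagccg
Uqcrc2: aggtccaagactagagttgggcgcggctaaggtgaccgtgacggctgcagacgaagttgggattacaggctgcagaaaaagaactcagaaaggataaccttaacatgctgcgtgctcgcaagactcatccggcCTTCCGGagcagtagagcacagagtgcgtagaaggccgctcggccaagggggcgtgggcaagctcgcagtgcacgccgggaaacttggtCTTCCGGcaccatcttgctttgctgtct
Ndufa6: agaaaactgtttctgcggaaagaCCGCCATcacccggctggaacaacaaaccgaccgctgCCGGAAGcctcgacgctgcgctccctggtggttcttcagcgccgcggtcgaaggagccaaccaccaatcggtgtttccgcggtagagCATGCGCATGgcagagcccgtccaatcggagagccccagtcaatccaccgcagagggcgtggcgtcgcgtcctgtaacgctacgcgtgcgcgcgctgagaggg
Ndufs1: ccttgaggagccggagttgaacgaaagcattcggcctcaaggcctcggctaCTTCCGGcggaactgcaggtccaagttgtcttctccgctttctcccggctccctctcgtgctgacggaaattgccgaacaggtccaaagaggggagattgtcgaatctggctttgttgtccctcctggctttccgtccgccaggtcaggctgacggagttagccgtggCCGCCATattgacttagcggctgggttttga

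Other mitochondrial lists were set beside the subunit genes tumor by tumor. The 73 mitochondrial ribosomal protein genes, which translate the subunits encoded in mitochondrial DNA, had median differences of 1.12 (09I1), 0.06 (11D2), 0.12 (12I1), -0.21 (29I1) and -0.16 (43D1), with a mean above 0 for 70 of 73, and for 20 of 73 without 09I1. Assembly factors of complex IV (22 genes) had medians of 0.91, 0.08, 0.12, -0.23 and -0.07 in the same tumors. Their extremes in 09I1 were wide, from -1.31 for Coa5 to 1.99 for Pet100. The 8 complex III assembly factors had 1.29, -0.08, 0.08, -0.22 and -0.20, with Uqcc2 at 2.08 and Uqcc6 at 2.17 in 09I1. The 4 complex II factors had 1.46, 0.01, 0.23, -0.17 and 0.03, and the 5 ATP synthase factors 0.63, -0.04, 0.03, 0.17 and 0.01. The 12 coenzyme Q synthesis genes had 0.53, -0.01, 0.30, -0.08 and -0.30. Lower medians in 09I1 were found for the 15 genes of the TCA cycle and pyruvate dehydrogenase, at 0.01. In the other tumors that list had 0.09 (12 of 15 higher in 11D2), 0.18 (13 higher in 12I1), -0.19 (11 lower in 29I1) and -0.22 (15 lower in 43D1), directions that were also those of the subunit genes. The 6 genes for adenine nucleotide, phosphate and porin carriers had -0.02, -0.04, 0.05, -0.10 and -0.20. The 19 genes of mitochondrial biogenesis and mitochondrial DNA expression had 0.08, -0.04, 0.10, -0.08 and -0.25, with 7 of 19 means above 0. Among them, the ETS factor Gabpa differed by -1.27 in 09I1, and the coactivator Ppargc1a had differences of -0.25, 0.11, 0.08, 0.29 and -0.25. Citrate synthase, Cs, often used as a measure of mitochondrial content, had a mean difference of -0.21 ± 0.13 (SE, n = 5 pairs, limma adjusted p = 0.977) and -0.15 without 09I1. No gene of these lists had an adjusted p under 0.05 in either direction, and limma's unadjusted p was under 0.05 for 0 of them.

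**Figure D5:**
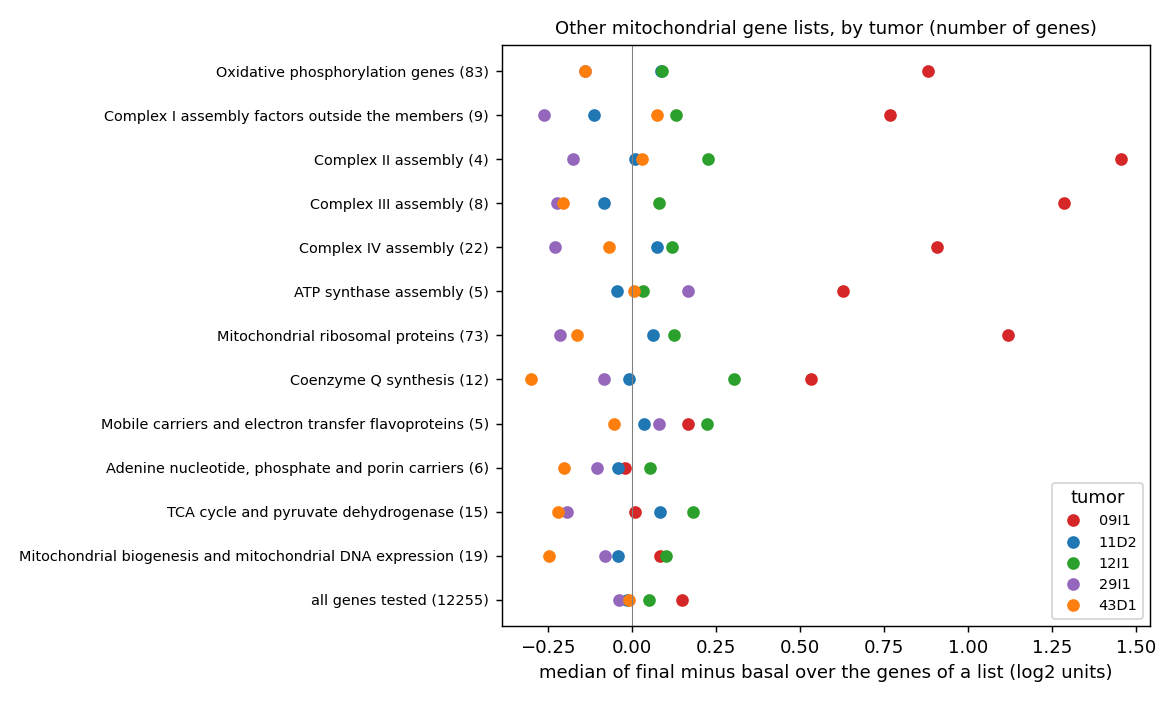
Median final minus basal difference (log2 units) over the genes of each mitochondrial list in each tumor (coloured points), with the number of genes in brackets. In 09I1 the ribosomal protein and assembly lists lie between 0.63 and 1.46 and the TCA cycle, carrier and biogenesis lists between -0.02 and 0.17.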

How the data were processed

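RNA of 10 tumor samples was hybridised to 1-colour Affymetrix Rat Genome 230 2.0 arrays. The authors deposited log2 values which, per the labels' protocols, were normalized with robust multichip averaging (RMA), which the submitters' processing notes also name. The design text also states a filter on control sequences and dim signals, without a limit, and a paired Student's test in GeneSpring GX 7.3. The deposited table still held 57 control probe sets among 31099, so the filter had not been applied to it. The number of arrays limits the precision. No detection calls were used here, and a gene's level is not comparable with another gene's.

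After removal of control probe sets and of the dimmest 25% of the remaining ones (mean of the 10 arrays), 23281 probe sets were tested. The final minus basal difference was fitted by limma 3.58.1 (R 4.3.3) on all of them, taking tumor as a fixed block with an intensity trend. Benjamini-Hochberg adjustment ran over all 23281 (threshold 0.05). Pairing rests on the labels, where the 2 samples of a tumor share a code. As a check, the deviations of both samples from their group means correlated at 0.072 (09I1), 0.095 (11D2), 0.014 (12I1), -0.15 (29I1) and 0.22 (43D1), and in 2 of the 5 tumors (11D2 and 43D1) the basal deviations matched those of their own final sample best. The fit was tested on simulated data with independent noise and the same shift on every final array. That setting held no single deviating array and no tumors of opposite direction. Of the probe sets, 20832 carried 1 symbol in the platform annotation, 436 several and 9831 none, and 12255 genes with a tested probe set of their own formed the background. Promoters were taken from RefSeq's table of the GRCr8 assembly, which serves for these sequences and their coordinates only. No protein sequences were used here.

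The genes, the 17 other gene lists and the rule for named genes were chosen with earlier results of these data known. Named genes were those with the same sign in all tumors, the 2 highest and the 2 lowest mean differences of each complex, the highest and the lowest in each tumor, and fixed isoforms and subunits. From other lists at most the 2 highest and 2 lowest were named, with Ppargc1a, Gabpa and Cs. Further names (Ndufaf8, Uqcr11, Uqcrc1, Ndufa6, Ndufa7, Ndufs3, Ndufs8, Ndufv1, Ndufv2, Ndufv3, Atp5f1c, Atp5f1d, Atp5f1e, Atp5me, Atp5po) were chosen after their values were seen. Alternatives were no block, a random block, other filters, cyclic loess, median centring, array weights, no trend, the methods' paired t-test, averaging a gene's probe sets and leaving out each tumor. Figures were drawn with matplotlib 3.10.9.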

Additional observations from a re-analysis of the deposited data

Results flagged for a closer look

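Each set of 5 samples was searched for 1 sample far from the other 4. Of 88 sets, 26 held such a sample, and 21 of the 26 were the final 09I1 sample. Chance flags about 1 in 20 independent sets, which does not apply here, since the sets share arrays and many of the genes were named for an extreme difference. Its centred median level was 0.65 over the 83 oxidative phosphorylation genes, 0.69 for complex I, 0.74 for complex I accessory subunits, 0.64 for the Ndufaf genes, 0.43 for complex III and 0.66 for complex IV. Its level stood high for Atp5if1 (11.51), Atp5mpl (11.90), Cox5a (8.79), Cox5b (12.12), Cox6a1 (12.16), Cox6b1 (12.63), Cox7a1 (5.74), Ndufa12 (11.94), Ndufa3 (11.97), Uqcr10 (13.24) and Uqcrq (12.20), and low for Atp5f1a (11.05) and Sdha (10.21). Its 3′ minus 5′ difference was 2.61 for beta-actin and 0.93 for GAPDH, and the part of these in its levels was not tested.

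The final 11D2 sample stood high for Cox6a2 (7.78), together with the skeletal muscle markers. The basal 09I1 sample stood low for Atp5mpl (10.38) and Uqcrq (10.66). The basal 43D1 sample stood high for Atp5f1b (12.75) and Cox8b (5.87).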

How the results depend on the processing

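No alternative brought a probe set or an oxidative phosphorylation gene past the adjusted threshold: without the replicate block the counts were 0 and 0, and the paired fit had 0 and 0. At an unadjusted p under 0.05 limma called 935 of the 23281 probe sets, the methods' t-test 1081, array weights 2440 and the stricter filter 465. That count was 1868 without 09I1, 608 without 11D2 and 685 to 1076 without any 1 of the others. Among the oxidative phosphorylation genes the unadjusted count was 1 with the methods' t-test (Cox7a2l), between 0 and 1 when each tumor was left out (Cox6c-ps1 without 12I1) and 0 under the other alternatives. The number of genes with a mean difference above 0 was 74, with 34 to 78 when each tumor was left out and 63 with array weights. It was 34 without 09I1, the tumor that decides it. The median over the 83 was 0.15, with 0.04 under array weights, 0.18 with each array centred on its median, and -0.02 to 0.23 when each tumor was left out, lowest without 09I1. Without 09I1 the medians of complexes I, III, IV and V and of the Ndufaf genes were below 0. Of 431 alternative values of the 31 named genes in the test, 0 passed the threshold (lowest adjusted p 0.622) and 37 had the opposite sign. With the mean over probe sets, 80 of the genes were above the filter. Cross-hybridisation and the position of probes along a transcript were not analysed here.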
